A study of Mus musculus with 15 samples.

Results

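The AMPA receptor genes described here are the pore-forming subunits Gria1, Gria2, Gria3 and Gria4, the transmembrane AMPA receptor regulatory proteins (TARPs) Cacng2, Cacng3 and Cacng8, and the cornichons Cnih2 and Cnih3. They were taken by symbol from the gene lists of the deposited matrices and are 9 of 26145 genes. All 9 were found, and all but Cacng8 had enough counts to be tested in excitatory and in inhibitory neurons.

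Single-cell RNA sequencing of mouse prefrontal cortex (PFC) was carried out in 15 libraries of male C57BL/6N mice, with tissue of 2 mice pooled for dissociation. The 3 libraries of P21 mice (21 days old) came from animals with no drug exposure named in the labels. The 12 libraries of P60 mice (8 to 10 weeks in the labels) came from animals that self-administered saline or cocaine through an intravenous catheter, with 2 libraries for each drug at maintenance, at 48 h of withdrawal and at 15 days of withdrawal. In the paper P60 is the age at catheter surgery, and tissue was taken after self-administration or withdrawal. By this account the mice called P60 here were older at collection, and the withdrawal groups were older than the maintenance groups. Pooling leaves the spread between single mice unseen, and the labels name the nucleus accumbens where the sample titles and methods name the PFC. The P21 mice are given as 4 for 3 libraries, so how they were divided is not known and these libraries may share animals. The P60 mice also differ from the P21 mice in catheter surgery and self-administration, and these cannot be told apart from age. Nor can any difference in how the libraries of each age were prepared or sequenced. The paper's matching of P21 to P60 cells was chosen to limit a bias between sequencing technologies. The P60 saline libraries are numbered 2 and 3 (maintenance), 5 and 7 (48 h) and 11 and 12 (15 days), and the cocaine libraries 1 and 4, 6 and 8, and 9 and 10 in the same order.

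AMPA receptors are glutamate-gated ion channels built as tetramers of the proteins encoded by Gria1 to Gria4, and they carry most fast excitatory transmission in the cortex. TARPs and cornichons are membrane proteins that join the receptor, help it reach the surface and the synapse, and slow its deactivation or desensitization. Receptors that hold the edited Gria2 product pass little calcium, while receptors without it are calcium-permeable and are a known feature of many fast inhibitory neurons and of some glia.

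The part of the coding sequence that sets calcium permeability is shown because Gria2 and the other subunits differ in what happens to it after transcription. The capitals mark the codon of the Q/R site, a glutamine in the pore loop of each subunit. The sequences are from the NCBIM37 (mm9) genome, 5′ to 3′ on the strand of the gene.
Gria1: ggggccttcatgCAGcaaggatgtgacatt
Gria2: ggtgcctttatgCAGcaaggatgcgatatt
Gria3: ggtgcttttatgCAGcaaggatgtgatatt
Gria4: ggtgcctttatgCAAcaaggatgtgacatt
These 30 bases lie in exon 11 of 16 of Gria1 (chr11:57056584-57056613, plus strand), exon 11 of 17 of Gria2 (chr3:80510818-80510847, minus strand), exon 11 of 16 of Gria3 (chrX:38963430-38963459, plus strand) and exon 12 of 17 of Gria4 (chr9:4464122-4464151, minus strand). Between any pair of the 4 genes, 2 to 4 of the 30 bases differed, and the codon itself was CAG in Gria1, Gria2 and Gria3 and CAA in Gria4. In Gria2 pre-mRNA this adenosine is edited by the enzyme that Adarb1 encodes, so that arginine is read. The counts used here come from the 3′ ends of transcripts, far from this exon, and hold no reading of the editing or of the flip and flop exons.

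Each UMI stands for 1 captured mRNA molecule, and levels are given as CPM, the UMIs of a gene relative to all UMIs of the cell type in a library. Because 3′ ends are counted, transcript length does not enter the counts, but a gene model with an incomplete 3′ end can lose counts. The gene with the fewest UMIs was Cacng8, the TARP best known from hippocampal and cortical excitatory synapses. Cacng8 held 20 UMIs in 35360 retained cells, 9 at P21 and 11 at P60. Its only coding model in the annotation of the same build has 663 bases, all coding, and no 3′ UTR. The last 30 bases of this model are shown to mark where it stops, with the last codon in capitals, at chr7:3415337-3415366 on the plus strand.
Cacng8: atcctgtctgaggtgatcggagtactgGCC
This codon is not a stop codon, and the bearing of this end on the count was not tested. With so few UMIs, Cacng8 did not pass the filter on low counts and was tested only in the alternative with no filter. The other 8 genes held between 11157 (Cnih2) and 165222 UMIs (Gria2) in the retained cells.

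The retained cells of a library numbered 2791 to 4439 at P21 and 1055 to 3784 at P60, with medians of 5718 to 8369 and 3426 to 11334.5 UMIs per cell. No pair of libraries shared more than 27 barcodes of retained cells, or 40 of all deposited barcodes. The cell classes and clusters are the authors'. Of the P21 cells grouped by cluster, 276 of 5934 excitatory neurons (4.65%) and 19 of 41 oligodendrocyte precursors (46.3%) carried another deposited class. The P21 precursors held C1qa, a microglial gene, at 339 CPM and Cldn5, an endothelial gene, at 443 CPM beside 575 CPM of their own marker Pdgfra. In saline P60 cells, Slc17a7, the vesicular glutamate transporter of cortical excitatory neurons, measured 402 ± 65.4 CPM in excitatory neurons (SD, n = 6 libraries), while inhibitory neurons had 29.2 ± 31.0 CPM (n = 6). Excitatory neurons numbered 5934 at P21 and 6707 in the saline P60 libraries, and inhibitory neurons 962 and 563. Libraries 2 and 3 held 19 and 28 inhibitory neurons, so the inhibitory values of these libraries rest on few cells. The labels of P21 cells were assigned by the authors from correlation with P60 clusters.

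In the saline P60 cortex, the mean levels of Gria2, Gria3, Cacng3, Cnih2 and Cnih3 were higher in excitatory than in inhibitory neurons, and those of Gria1, Gria4 and Cacng2 were higher in inhibitory neurons, with overlap between libraries for these 3 genes. Cell types were defined by the authors on the same counts, so differences between types are described here without a test. Gria2 ranged from 599.8 to 705 CPM in the 6 excitatory samples with a median of 647, and from 309 to 490 CPM in the inhibitory samples with a median of 416. The excitatory samples all lay above the inhibitory ones.

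**Figure D1:**
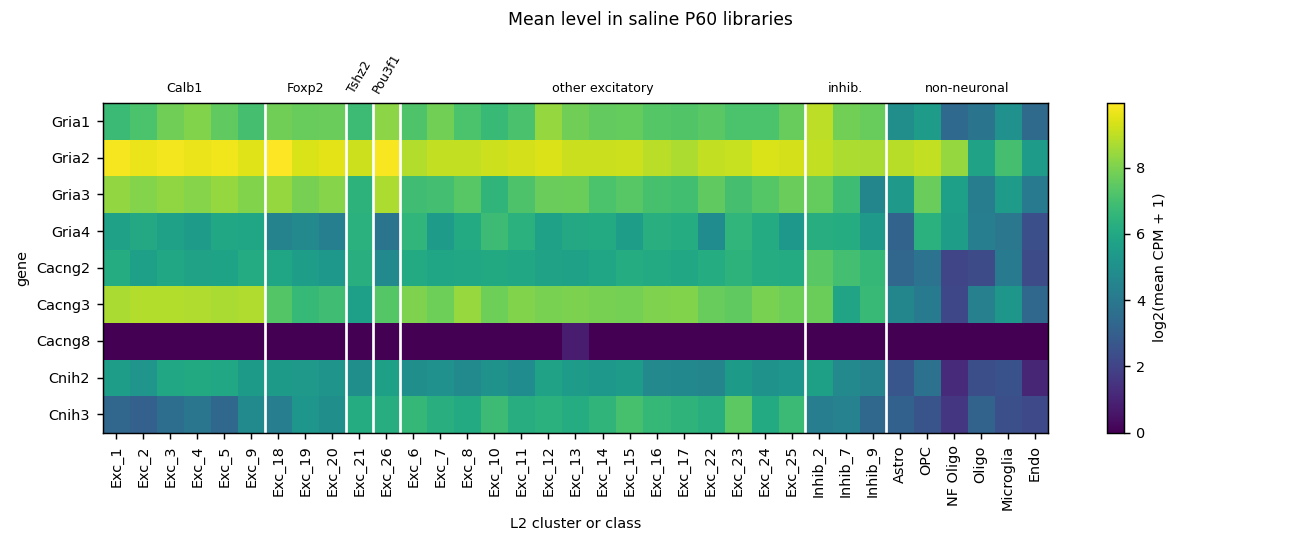
Mean level in saline P60 libraries of the 9 genes (rows) in the 26 excitatory and 3 inhibitory clusters with enough cells and in the non-neuronal classes (columns), with colour as log2 of mean CPM + 1. Gria2 is bright in neurons, astrocytes (470 CPM) and oligodendrocyte precursors (524 CPM), Cacng3 is brightest in the Calb1 clusters, and Cacng8 is at or near 0 throughout.

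Cacng3, a TARP of cortical principal cells, measured 265 ± 22.9 CPM in excitatory neurons (SD, n = 6), while the inhibitory level was 93.6 ± 16.2 CPM (n = 6), with no overlap between the libraries of both classes. Cacng2, which encodes stargazin, the first TARP to be described, was ordered the other way. Its excitatory level was 63.4 ± 5.69 CPM and its inhibitory level 99.4 ± 21.7 CPM, and the inhibitory level was the higher of both in 5 of 6 libraries. The exception was library 2, with 59.4 CPM in its 19 inhibitory cells.

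Gria1, the subunit that moves to synapses during long-term potentiation, measured 179.5 ± 14.3 CPM in excitatory neurons, while inhibitory neurons had 256 ± 77.8 CPM (n = 6 each). The inhibitory libraries ranged from 127 to 348 CPM and overlapped with the excitatory range of 164 to 201 CPM, and in library 3 Gria1 was the lower in inhibitory neurons (127 against 177 CPM). The Gria3 level was 201 ± 17.4 CPM in excitatory neurons, above the inhibitory level of 103 ± 29.1 CPM. Gria4, the subunit with fast kinetics, was at 59.3 ± 5.47 and 71.0 ± 16.8 CPM, and neighbouring classes in its order did not differ beyond their spread. Cnih3 was at 72.4 ± 12.4 and 22.4 ± 9.60 CPM, and Cnih2, the cornichon best studied in hippocampus, at 40.0 ± 4.31 and 23.8 ± 9.28 CPM.

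In oligodendrocyte precursors, newly formed oligodendrocytes and astrocytes, Gria2 is given beside Snap25, a presynaptic gene of neurons, and Slc17a7. The source of these neuronal transcripts in glial classes was not tested. In saline P60 oligodendrocyte precursors, Gria2 stood at 80.1% of its excitatory level, Gria3 at 101% and Gria4 at 143%, while Snap25 stood at 11.2% and Slc17a7 at 13.6% (means of 5 libraries). Each of these 3 Gria genes was above both neuronal genes, as a percentage of the excitatory level, in 5 of 5 libraries. This was not particular to precursors. In microglia, Gria2 (19.9%) and Gria3 (22.1%) were each above both in 5 of 6 libraries, and in mature oligodendrocytes Gria4 (30.6%) in 6 of 6. Gria4 in these precursors was at 81.1 ± 18.95 CPM (n = 5), a range of 62.7 to 106 CPM that overlapped with the excitatory range of 54.4 to 69.7 CPM.

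In newly formed oligodendrocytes, Gria2 was at 334 ± 83.6 CPM (n = 5), or 50.9% of the excitatory level against 2.74% for Snap25 and 9.86% for Slc17a7. In mature oligodendrocytes Gria2 was at 52.0 ± 47.1 CPM (n = 6). In astrocytes, Gria2 was at 491 (library 2), 357 (library 5), 327 (library 7), 615 (library 11) and 562 CPM (library 12), and it was 71.7% of the excitatory level against 10.8% for Snap25 and 14.9% for Slc17a7. Snap25 in the same astrocytes ranged from 46.5 CPM in library 2 to 1276 CPM in library 11. Library 2, with the least Snap25, had the median Gria2 level, and the highest Gria2 levels were in libraries 11 and 12, which had the most Snap25 (1276 and 579 CPM). The part of neuronal RNA in these levels was not tested. Cacng3 did not stand out in this way, at 9.43% of the excitatory level in astrocytes and above both neuronal genes in 0 of 5 libraries.

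Within excitatory neurons Cnih3, Cacng3 and Gria4 varied most between clusters among the tested genes, and Gria2 varied least. Over the 26 excitatory clusters of the saline P60 libraries, mean levels spanned 2.33-fold for Gria2 (425 CPM in Exc_17 to 991 CPM in Exc_18), 3.06-fold for Gria1 (107 CPM in Exc_10 to 329 CPM in Exc_12), 4.88-fold for Gria3 (86.1 CPM in Exc_21 to 420 CPM in Exc_26) and 8.65-fold for Gria4 (13.1 CPM in Exc_26 to 113 CPM in Exc_10). The span was 23.9-fold for Cnih3 (7.36 CPM in Exc_2 to 175 CPM in Exc_23) and 9.40-fold for Cacng3 (47.7 CPM in Exc_21 to 449 CPM in Exc_3). Cacng2 and Cnih2 spanned 3.20-fold and 2.93-fold. Exc_3, Exc_2, Exc_4, Exc_9, Exc_5 and Exc_1 had the highest Cacng3 levels, from 413 to 449 CPM, and the next cluster, Exc_8 at 337 CPM, lay below them beyond the spread. Among the 29 neuron clusters that could be ordered, Gria1 was highest in Inhib_2, a cluster with Sst, at 492 ± 51.0 CPM (SD, n = 3). With cells pooled over the saline P60 libraries, Inhib_1 (554 CPM, 17 cells) and Inhib_6 (552 CPM, 22 cells), which had too few cells to be ordered, lay above Inhib_2 (508 CPM, 44 cells).

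Clusters were joined by layer markers after their levels had been seen, so the following values are a description. The 6 clusters with at least 200 CPM of Calb1, a marker of layer 2/3, were Exc_1 to Exc_5 and Exc_9, with 220 to 282 CPM inside the group and at most 128 CPM outside. The 3 clusters with at least 100 CPM of Foxp2, a marker of layer 6, were Exc_18 to Exc_20 (131 to 175 CPM, at most 35.9 CPM outside). Exc_21 alone held the layer 5 marker Tshz2 at 1995 CPM (at most 114 CPM outside), and Exc_26 alone held Pou3f1, another layer 5 marker, at 89.3 CPM (at most 13.8 CPM outside). The other 15 clusters formed the remainder.

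Calb1 neurons combined high Cacng3 with very low Cnih3. In the 6 saline P60 libraries Cacng3 ranged from 371 to 474 CPM with a median of 433 CPM in Calb1 neurons, and from 214 to 265 CPM with a median of 237 CPM in the remainder. The means were 430 ± 34.7 and 237 ± 21.3 CPM (SD, n = 6), and the Calb1 neurons were higher in 6 of 6 libraries. Cnih3 ranged from 5.28 to 21.1 CPM with a median of 12.998 CPM in Calb1 neurons, and from 77.4 to 119.9 CPM with a median of 100.2 CPM in the remainder. Its means were 12.8 ± 5.64 and 98.8 ± 14.3 CPM, and the Calb1 neurons were lower in 6 of 6 libraries. The P21 libraries, which took no part in choosing the groups, had the same order in 3 of 3 libraries for both genes, with Cacng3 at 573 ± 78.7 against 258 CPM and Cnih3 at 20.8 ± 1.28 against 109 ± 9.27 CPM. P21 cells were named by likeness to the P60 clusters, so this order is not independent of the P60 cells.

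**Figure D2:**
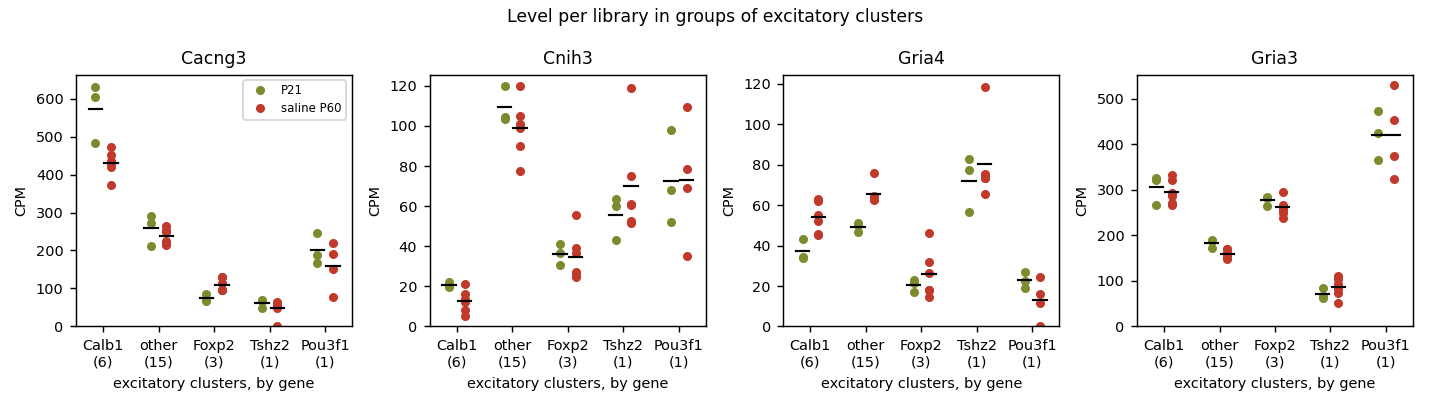
Level in CPM of Cacng3, Cnih3, Gria4 and Gria3 in each P21 and saline P60 library (points; the black line is the mean) in excitatory neurons grouped by marker, with the number of clusters in each group in brackets. Cacng3 was highest and Cnih3 lowest in the Calb1 group at both ages, and Gria3 was highest in the Pou3f1 group (420 CPM at P60 and 421 CPM at P21).

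The groups set by the layer 5 markers Tshz2 and Pou3f1 (1 cluster each) and the layer 6 marker Foxp2 each had another combination. They need not hold all neurons of these layers, and the remainder was not assigned to a layer. Foxp2 neurons were low in Cacng3 (110 ± 16.7 CPM), Cnih3 (34.8 ± 11.7 CPM) and Gria4 (25.9 ± 11.8 CPM, below the remainder in 6 of 6 libraries). Tshz2 neurons were lowest in Cacng3 (47.7 ± 24.0 CPM) and Gria3 (86.1 ± 21.6 CPM) and held Gria4 at 80.2 CPM. Pou3f1 neurons were their opposite for the subunits, with Gria3 at 420 ± 90.4 CPM and Gria4 at 13.1 ± 10.2 CPM (n = 4 libraries with enough cells). At P21, Gria3 was at 421 CPM and Gria4 at 22.8 CPM in the Pou3f1 neurons, and at 71.5 and 72.2 CPM in the Tshz2 neurons.

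Across the 26 excitatory clusters, Gria2 levels followed Gria3 (Pearson's r = 0.85) and Cnih2 (r = 0.75) and ran against Cnih3 (r = -0.72), and Gria3 ran against Gria4 (r = -0.66). The clusters share libraries, total counts and the cells they were defined on, so these are descriptions without a test. Over the 29 neuron clusters, 8593 genes were searched for the profile most like that of each gene by Pearson's r of levels. The most similar profile was that of Dlg4, which encodes the synaptic scaffold PSD-95, for Gria2 (r = 0.93). It was Fam131a for Gria3 (r = 0.91), Igfbp6 for Cacng3 (r = 0.95), Etfb for Gria1 (r = 0.75), Camk2n2, an inhibitor of CaMKII, for Gria4 (r = 0.85), C530008M17Rik for Cacng2 (r = 0.89), Aplp1 for Cnih2 (r = 0.91) and Gm10123 for Cnih3 (r = 0.90).

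The share that each subunit held of the Gria1 to Gria4 UMIs separated the classes further. In excitatory neurons of the saline P60 libraries, Gria2 held 59.6% ± 1.02, Gria3 18.4% ± 0.98, Gria1 16.5% ± 1.44 and Gria4 5.46% ± 0.60 (SD, n = 6). In inhibitory neurons Gria2 held 49.0% ± 5.42 and Gria1 30.1% ± 5.78. At P21 the Gria1 share of inhibitory neurons was 42.3% ± 0.60 and the Gria2 share 35.2% ± 0.25 (n = 3). The clusters that make up the inhibitory class differed in number of cells between the ages, and their part in these shares was not tested. With equal weight for each of 8 inhibitory clusters, Gria1 was at 264 CPM at P21 and 303 CPM at P60. Gria2 was at 360 and 428 CPM by the same measure. In astrocytes Gria2 held 88.3% ± 9.81 of the Gria UMIs at P60 (n = 5). Of the UMIs of Cacng2, Cacng3 and Cacng8, Cacng3 held 80.6% ± 2.67 in excitatory neurons, and Cacng2 held 51.2% ± 7.71 in inhibitory neurons. Of the UMIs of Cnih2 and Cnih3, Cnih3 held 64.1% ± 3.81 in excitatory neurons. Other TARP and cornichon genes were left out of these shares. These are shares of UMIs, not of subunit proteins in receptors.

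**Figure D3:**
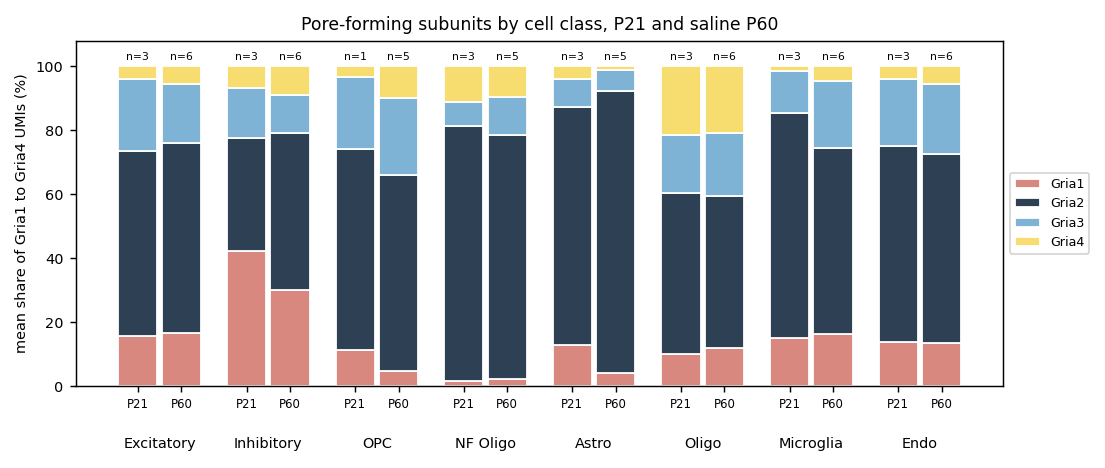
Mean share in percent of the Gria1 to Gria4 UMIs held by each gene (stacked bars) in each cell class at P21 and in saline P60 libraries, with n the number of libraries. Gria2 held 59.6% in excitatory neurons at P60, and Gria1 held 42.3% in inhibitory neurons at P21. The mix of inhibitory clusters differed between the ages.

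The comparison of ages asks how the receptor genes differ between adolescent and adult cortex. Between P21 and saline P60 excitatory neurons, 1 of 8 tested genes was called at an adjusted p below 0.05 and a change over 1.5-fold, against 19.3% of the 13245 genes tested (8.18% higher and 11.1% lower at P60). This gene was Gria4. It was at 41.4, 42.5 and 38.7 CPM in P21 libraries 1 to 3, and between 54.4 and 69.7 CPM with a median of 58.2 CPM in the 6 saline P60 libraries. All P60 libraries lay above all P21 libraries. The log2 fold change was 0.60 ± 0.0999 (SE), or 1.52-fold, just over the threshold, with an adjusted p of 0.00052 in edgeR's quasi-likelihood test. The size fell under 1.5-fold in 6 of 19 alternative fits, without saline library 3 (log2 fold change 0.52), without P21 library 3 (0.57) and with the deposited class used instead of the cluster (0.58) among them, and the adjusted p was at most 0.00933 in all 19. With equal weight for each of the 26 clusters, the difference was 0.32 on the log2 scale, under the fold threshold, and 22 clusters were higher at P60. This value is a ratio of CPM, while the fit used TMM scaling. In CPM, the class means were 40.9 at P21 and 59.3 at P60, and the means over clusters 46.3 and 57.9. The class difference was thus larger than that of the mean of its clusters. The mix of excitatory clusters also differed between the ages. Exc_20, with Gria4 at 22.4 CPM in saline P60 cells, held 8.34% of the excitatory cells at P21 and 1.40% at P60. Exc_10, with Gria4 at 106 CPM, held 1.57% and 6.78%.

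**Figure D4:**
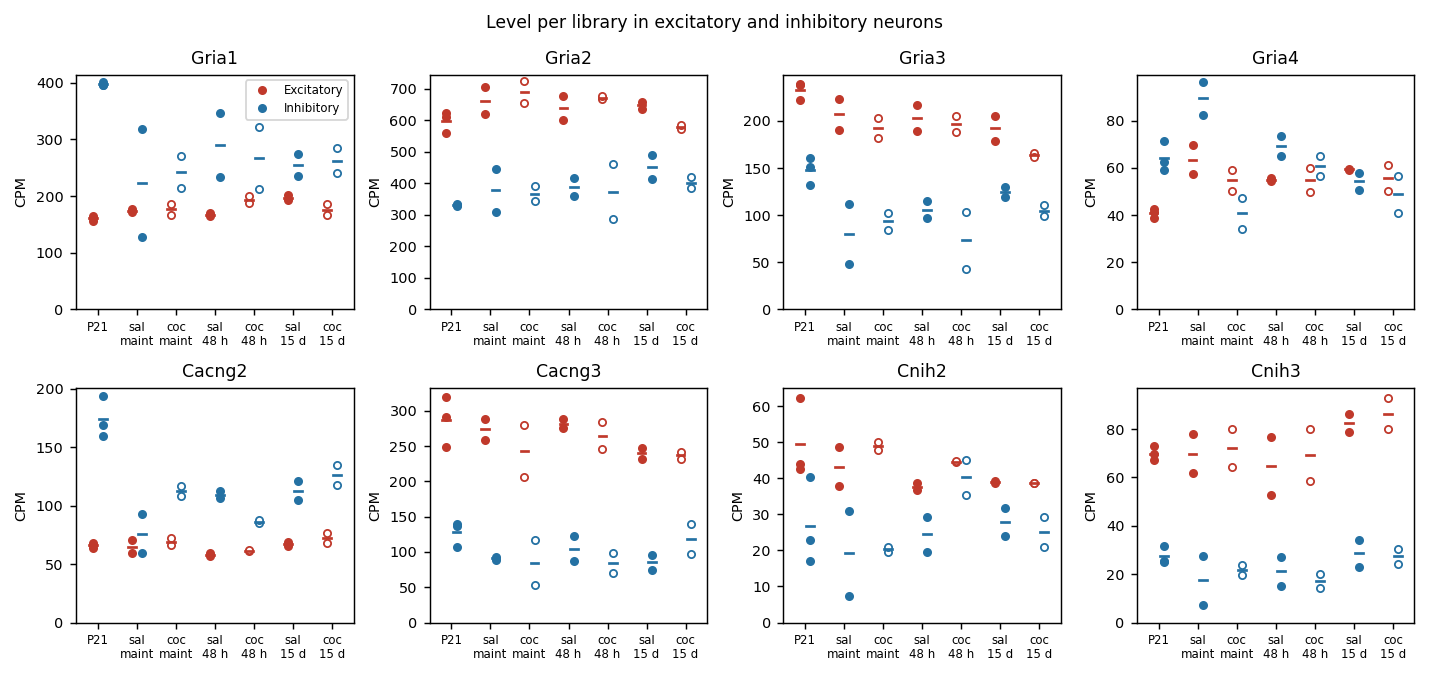
Level in CPM of the 8 tested genes in each library (points; lines are group means) for excitatory (red) and inhibitory neurons (blue), at P21 and in each P60 group, with cocaine as open points. Gria4 in excitatory neurons was 38.7 to 42.5 CPM at P21 and 54.4 to 69.7 CPM in saline P60 libraries.

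The other 7 genes kept within 1.5-fold in excitatory neurons. Gria1 was at 156, 164 and 162 CPM at P21 and 164 to 201 CPM in saline P60 libraries, with no overlap. Its log2 fold change of 0.23 had an adjusted p of 0.0348 but was under the fold threshold. Gria2 (0.18, adjusted p = 0.0864), Gria3 (-0.15, adjusted p = 0.177), Cnih2 (-0.26, adjusted p = 0.102) and Cnih3 (0.11, adjusted p = 0.473) did not pass. The log2 fold changes of Cacng3 and Cacng2 were -0.04 and 0.00, with adjusted p of 0.774 and 0.979.

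In inhibitory neurons, 2 of 8 tested genes were called, both lower at P60, against 14% of the 8898 genes tested and 8.29% for genes lower at P60. Cacng2 was at 194, 169 and 159 CPM at P21 and between 59.4 and 121 CPM with a median of 105 CPM in the saline P60 libraries. The groups did not overlap. The log2 fold change was -0.74 ± 0.145 (SE), with an adjusted p of 0.00184 in edgeR's test. It stayed called in 21 of 21 alternative fits of the class, between -0.83 and -0.64. In the 2 single inhibitory clusters where Cacng2 could be tested, it was at -0.29 and -0.093, and neither was called.

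Gria1 was at 397, 401 and 396 CPM in inhibitory neurons at P21 and between 127 and 348 CPM with a median of 254 CPM at P60, again without overlap. Its log2 fold change was -0.64 ± 0.194 (SE, adjusted p = 0.0343). The call held in 11 of 21 alternative fits, with an adjusted p from 0.00771 to 0.100. It was lost when any P21 library was left out, and also without saline library 3 (log2 fold change -0.51, under the fold threshold), 5, 11 or 12. Gria3 was at 160.3, 132 and 151 CPM at P21 and 48.1 to 129.9 CPM at P60, without overlap, but it did not pass (log2 fold change -0.47, adjusted p = 0.0637). Cacng3 (-0.44, adjusted p = 0.0584) and Gria2 (0.29, adjusted p = 0.123) did not pass either. Gria4 (0.02), Cnih2 (-0.05) and Cnih3 (-0.14) had the smallest values.

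The mix of inhibitory clusters also differed between the ages. The Sst clusters Inhib_1 and Inhib_2 held 10.2% and 35.4% of the inhibitory cells at P21 and 3.02% and 7.82% in the saline P60 libraries. Inhib_7 held 7.90% and 35.7%, and Inhib_6, a cluster with Pvalb, held 16.8% and 3.91%. The Sst level of the class was 12126 ± 1114 CPM at P21 (SD, n = 3) and 3271 ± 2846 CPM at P60 (n = 6). Without the Sst clusters the Gria1 difference was -0.42 (adjusted p = 0.100) and was not called, while Cacng2 stayed called at -0.83 (adjusted p = 0.00133). Those of Gria3 and Cacng3 turned to 0.092 and 0.39 and those of Gria4 and Cnih2 to -0.085 and 0.012. Inhib_6 and Inhib_7 stayed in this fit, so the mix of its clusters still differed between the ages. Pooled over the P21 libraries, Inhib_6 held Gria1 at 495 CPM and Cacng2 at 264 CPM.

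With equal weight for each of the 8 inhibitory clusters that had enough cells at both ages, Gria1 was 0.20 higher at P60 on the log2 scale, the opposite direction to the class, and 6 of 8 clusters were higher. Cacng2 was 0.57 lower at P60 by the same measure, and 8 of 8 clusters were lower. Pooled over libraries, Gria1 was at 616 CPM at P21 and 554 CPM at P60 in Inhib_1, at 470 and 508 CPM in Inhib_2, and at 116 and 219 CPM in Inhib_7, the cluster whose share was larger at P60.

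A test of the class by age term, with the library as a block, called 2 genes against 7.21% of 12196 genes tested. The change with age differed between excitatory and inhibitory neurons by 0.74 ± 0.124 for Cacng2 (log2, SE, adjusted p = 2.70e-05) and by 0.61 ± 0.149 for Gria4 (adjusted p = 0.0036), excitatory minus inhibitory. The Cacng2 difference was called in 14 of 14 alternative fits. The Gria4 difference was called in 8 of 14, with an adjusted p of up to 0.0555 over the 14. It was not called with DESeq2 or with DESeq2 size factors. Gria1 differed by 0.90 ± 0.235 but did not pass (adjusted p = 0.0518). Over 14 alternative fits its log2 difference was 0.78 to 1.04, with an adjusted p from 0.000106 to 0.157. It was called in 5 of them, DESeq2 and libraries of at least 30 inhibitory cells among them. Cacng3 differed by 0.38 (adjusted p = 0.0218), under the fold threshold. None of these fits gave the clusters equal weight. With equal weight for each cluster, which has no test, the Gria1 age difference was 0.24 in excitatory and 0.20 in inhibitory neurons. That of Gria4 was 0.32 and 0.15, and that of Cacng2 was -0.13 and -0.57.

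Within single excitatory clusters, 12 of 203 tests of these genes were called, or 5.91%, against 11.3% of all tests in these clusters. The 8 called as higher at P60 stand beside 4.54% of all tests, and the 4 called as lower beside 6.73%. Gria4 was called in Exc_3, Exc_9, Exc_13 and Exc_14, with the largest value in Exc_13 (1.02 ± 0.241, SE, adjusted p = 0.00524), and 20 of 26 clusters had a value above 0. Gria1 was called in Exc_8 (0.61) and Exc_15 (0.70), and 21 of 26 clusters had a value above 0. Cacng3 was called in the Foxp2 clusters Exc_19 (0.81, adjusted p = 0.000997) and Exc_20 (0.82, adjusted p = 0.0191), while 17 of 26 clusters had a value below 0.

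The 4 falls were of Gria3 in Exc_10 (-0.75), Cnih2 in Exc_1 (-0.81) and Exc_24 (-0.89), and Cnih3 in Exc_24 (-0.63). Cnih2 had a value below 0 in 21 of 25 clusters, with a median of -0.32, and Cacng2 in 21 of 26, with no cluster called. With a minimum of 30 cells in place of 10 for a library in a cluster, 7 of 142 tests were called, or 4.93%, against 9.65% of all tests under this minimum. DESeq2 called 8 of 203, or 3.94%, against 7.93% of all tests. In the Foxp2 neurons as a group, Cacng3 was at 74.4 ± 9.76 CPM at P21 (SD, n = 3) and 110 ± 16.7 CPM at P60 (n = 6).

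**Figure D5:**
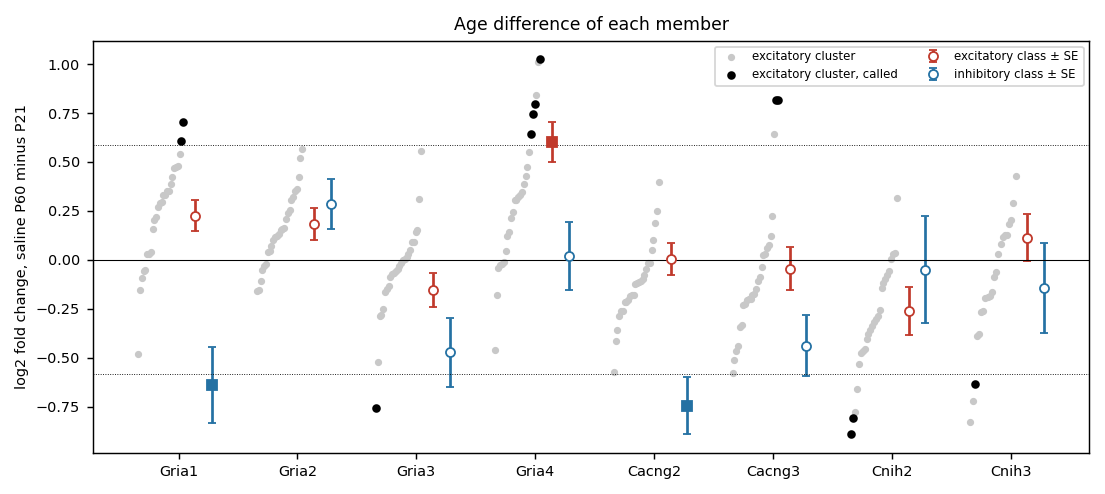
Log2 fold change from P21 to saline P60 of the 8 tested genes in each excitatory cluster (grey points, black where called) and in the excitatory (red) and inhibitory class (blue) with SE, as filled squares where called. Dotted lines mark 1.5-fold; Gria4 was called in excitatory neurons (0.60), and Cacng2 (-0.74) and Gria1 (-0.64) in inhibitory neurons.

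By edgeR's test, none of 16 tests in the 3 inhibitory clusters that could be fitted (Inhib_2, Inhib_7 and Inhib_9) was called, against 1.65% of all tests there. None of 16 tests in astrocytes, newly formed and mature oligodendrocytes, microglia and endothelial cells was called either, against 8.05%. Astrocyte Gria2 was at 275, 213 and 78.6 CPM at P21 and 470 ± 126 CPM at P60 (SD, n = 5), with no overlap. Its log2 fold change was 1.21 ± 0.333 (SE, adjusted p = 0.119), and the part of neuronal RNA in it was not tested. Snap25 was at 3.95% of its excitatory level in P21 astrocytes and 10.8% in P60 astrocytes. Newly formed oligodendrocytes held Gria2 at 330 ± 30.4 CPM at P21 (n = 3) and 334 ± 83.6 CPM at P60 (n = 5).

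The comparison of cocaine with saline asks whether self-administration or withdrawal changes these genes. In a fit of all 12 P60 libraries, none of the 8 tested genes was called in excitatory neurons at any period, over all periods or as a difference between periods. The background was 0% of 13171 genes at maintenance, 0% at 48 h of withdrawal, 0.706% at 15 days, 0% over all periods and 0% for the difference between periods. At an unadjusted p below 0.05, edgeR found 871, 651, 903, 1122 and 692 genes in these 5 tests, with 1 of the 8 (Cnih2, over all periods) among them. DESeq2 also called none of the 8.

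The values of these genes were small in excitatory neurons. At maintenance the log2 fold changes lay between -0.26 (Gria4) and 0.17 (Cnih2), with SEs of 0.0944 to 0.185. At 48 h they lay between -0.11 and 0.22, and at 15 days between -0.19 (Gria3) and 0.14. Over all periods Cnih2 was at 0.14 (adjusted p = 0.573 in edgeR's test). Taken over all periods, the 6 saline and 6 cocaine libraries overlapped for each gene, but within a period the 2 libraries of each group could lie apart. Gria2, for example, was at 705 and 620 CPM in the saline and 724 and 657 CPM in the cocaine libraries of maintenance. At 15 days it was at 658 and 637 CPM against 584 and 573 CPM, with no overlap in this period. With 2 libraries a group, changes of the size of these SEs could not be detected.

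In inhibitory neurons none of the 8 tested genes was called in any of the 5 tests, against 0% of 8687 genes at maintenance, 0.0115% at 48 h, 0.84% at 15 days, 0% over all periods and 0.0691% for the difference between periods. The SEs were larger, from 0.219 to 0.658 at maintenance. Gria4 was at 96.5 and 82.5 CPM in saline libraries 2 and 3 and 34.1 and 47.4 CPM in cocaine libraries 1 and 4 at maintenance. This difference of -0.999 ± 0.374 (log2, SE, adjusted p = 1 in edgeR's test) rested on 19 to 48 cells a library. Over all periods Gria4 was at -0.42 ± 0.168 (adjusted p = 0.933 in edgeR's test). This mean includes the maintenance value, and Gria4 was at -0.15 at 48 h and -0.11 at 15 days. At 48 h Cnih2 was at 0.72 ± 0.353 (adjusted p = 1.00 in edgeR's test). The maintenance and all-period values of Gria4 and the 48 h value of Cnih2 had an unadjusted p below 0.05 in edgeR's test. So had 358, 451 and 419 of the 8687 genes in the same tests. DESeq2 called none of the 8 in inhibitory neurons either.

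In excitatory clusters, none of the 117 tests at maintenance, 149 at 48 h and 200 at 15 days was called, against 0.00647%, 0.00509% and 1.24% of all tests. The lowest adjusted p in edgeR's test was 0.27 (Cacng2 in Exc_15 at 15 days). Gria2 had a value below 0 in 23 of 26 clusters at 15 days, with a median of -0.11, and Gria3 in 21 of 26, with a median of -0.17. The clusters come from the same 4 libraries, so their signs are not separate observations.

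A list of 50 other genes of the AMPA receptor pathway was counted in the same fits. It holds further auxiliary subunits, assembly and processing factors, scaffolds and trafficking proteins, synaptic organisers, and kinases and phosphatases, and 49 of its genes were found by a present or an older symbol. Of 47 tested in excitatory neurons, 1 was higher and 6 were lower at P60, or 14.9% against 19.3% of all genes, and the median log2 fold change was -0.08 against -0.00. Of 43 tested in inhibitory neurons, 4 were higher and 4 lower, or 18.6% against 14%, with a median of 0.08.

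The auxiliary subunits and paralogs gave 4 of the 6 falls in excitatory neurons, or 4 of the 15 tested (26.7%) beside 11.1% of all genes. Shisa6, an auxiliary protein that keeps receptors at the synapse, fell by 1.71 on the log2 scale (SE 0.264, adjusted p = 0.000327), and the TARPs Cacng5 and Cacng4 had log2 fold changes of -1.47 and -0.59. Olfm3, a secreted receptor-associated protein, was at -0.96. Shisa6 (-1.05) and Olfm3 (-1.34) were also called as lower in inhibitory neurons, together with Syndig1 (-1.19), a synaptic membrane protein that binds AMPA receptors. The list genes were not fitted in single excitatory clusters. The part of the differing mix of excitatory clusters in the excitatory values of this list was thus not tested.

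Among the other roles, Cpt1c, which assists the assembly of receptors in the endoplasmic reticulum, was called as higher in excitatory (0.66) and inhibitory neurons (0.61). Epb41l1, a cytoskeletal adaptor that binds the Gria1 product, was lower in excitatory neurons (-0.60). In inhibitory neurons Abhd6 (0.60), a hydrolase that limits surface receptors, Camk2a (0.66), a kinase of synaptic plasticity, and the scaffold Dlg2 (0.73) were higher at P60. Of the 8 list genes called in inhibitory neurons, 3 were called without the Sst clusters, namely Syndig1 (-1.12), Rab11a (-1.09) and Dlg2 (0.98). Shisa6 was then at -0.12, Olfm3 at -0.73, Cpt1c at 0.66, Abhd6 at 0.52 and Camk2a at 0.61. With libraries of at least 30 inhibitory cells, Dlg2 alone of the 8 was not called (0.68, adjusted p = 0.0534 in edgeR's test). In the same inhibitory samples Slc17a7 was at 35.9, 9.50 and 12.1 CPM at P21, at 0 to 20.998 CPM in 4 saline P60 libraries and at 69.4 and 66.9 CPM in libraries 11 and 12, and its part in these values was not tested. Rab11a, a small GTPase of recycling endosomes, was lower in excitatory (-1.08) and inhibitory neurons (-1.01) and also in endothelial cells (-0.82), microglia (-1.18), and newly formed (-0.97) and mature oligodendrocytes (-2.21), so its fall was not restricted to neurons. Adarb1, the editing enzyme of the Q/R site, had a log2 fold change of -0.30 in excitatory neurons (adjusted p = 0.0253), under the fold threshold, and was called as higher at P60 in endothelial cells (1.01). The other list genes called in non-neuronal classes were Abhd6 in endothelial cells (-0.64) and Cpt1c in newly formed oligodendrocytes (1.15). None of the tested genes of the list was called between cocaine and saline in the 10 tests of the 2 neuron classes.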

How the data were processed

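The reads of 10x Chromium 3′ libraries had been aligned to mm9 by the authors with Cell Ranger, against the Ensembl genes of NCBIM37 release 67. The files deposited are UMI counts per gene and barcode with no normalization, and a table of the class and cluster of each retained cell made with Seurat 2.1.0. The authors had removed cells with more than 10% mitochondrial UMIs, with few genes or taken for double droplets, and cells were not filtered further.

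Counts were summed over the cells of each class or cluster within a library. The class was read from the cluster name, and sums of fewer than 10 cells were not used. CPM and tests exclude 13 mitochondrial and 143 ribosomal protein genes. Levels are means ± SD over libraries. Tests were made with edgeR 4.0.16 (R 4.3.3) by robust quasi-likelihood after filterByExpr and TMM scaling. A call required a change over 1.5-fold and an adjusted p below 0.05, by Benjamini-Hochberg over all genes tested. The SE is the log2 fold change over the root of F. Age was tested between 3 P21 and 6 saline P60 libraries, and cocaine in a fit of 12 P60 libraries with 6 group means. These p-values measure the spread between libraries of pooled mice. DESeq2 1.42.0, other scalings, filters and sets of libraries were alternatives, and the code was tested on simulated data.

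Those of the 9 genes with enough counts were tested in each comparison, but not every value is given by name. Of the pathway list, those called and Adarb1 are named. The members and lists were chosen with earlier results of these data known. Layer groups, removal of the Sst clusters, equal cluster weights and the use of the deposited class were added after the data were seen. Python 3.11.15, numpy 2.4.6, pandas 2.3.3 and matplotlib 3.10.9 were used. The retained cells of a library held 8375172 to 42892922 UMIs, and low counts widen the SDs and SEs of types with few cells.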

Additional observations from a re-analysis of the deposited data

Results flagged for a closer look

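In the saline P60 excitatory neurons, library 3 held Gria4 at 69.7 CPM while the other 5 libraries lay between 54.4 and 59.6 CPM. Library 2 held Cnih2 at 48.6 CPM while the others lay between 36.7 and 39.3 CPM. Each lay far from the other libraries of its group by Dixon's test at the 95% level, in 2 of 16 groups tested, where chance gives about 1 in 20. Both are maintenance libraries. The change with age differed between excitatory and inhibitory neurons, in the test of the difference itself, by 0.61 on the log2 scale for Gria4 and by 0.74 for Cacng2. With equal weight for each cluster, the Gria4 age difference was 0.32 in excitatory and 0.15 in inhibitory neurons, and that of Cacng2 was -0.13 and -0.57.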

How the results depend on the processing

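No paired analysis was possible because the numbers of the P60 libraries within a group follow their listing and name no shared animals or days, and P21 mice have no partners. Of the log2 fold changes of the AMPA receptor genes in the alternative fits, 1400 kept their direction and their side of the thresholds, 7 passed them, 22 no longer passed and 91 turned direction, none of these called under either setting. The reported value was smaller than its SE in 88 of the 91. Equal weight for each cluster, which was no fit and has no test, turned 5 of 16 age differences, among them the called one of Gria1 in inhibitory neurons (0.20). The others were Gria3 (0.14) and Cacng3 (0.34) in inhibitory neurons and Cacng2 (-0.13) and Cnih3 (-0.14) in excitatory neurons. Equal-weight values are ratios of CPM, while the fits used TMM scaling, so they differ in scale as well as in weight. The class mean of Cacng2 in excitatory neurons was 66.0 CPM at P21 and 63.4 CPM at P60, already lower without this weighting.

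For age, the genes called in excitatory neurons numbered 5350 with no fold cutoff and 1682 with the saline libraries of 15 days of withdrawal alone, against 2559. Of the AMPA receptor genes, 1 was called in excitatory neurons, and this became 2 with no filter on low counts, by Cacng8 with its few UMIs, and 2 with no fold cutoff, by Gria1. It became 0 with all 12 P60 libraries, with the 15-day saline libraries alone, with the authors' class and with cells whose class and cluster agree, and 0 to 1 when libraries were left out in turn. In inhibitory neurons 2 were called, and 1 with P21 libraries 2 and 3 summed, with libraries of at least 30 inhibitory cells and without the Sst clusters, where Gria3 (0.092), Cacng3 (0.39), Gria4 (-0.085) and Cnih2 (0.012) turned direction. Inhibitory Gria4 also turned with no filter (-0.027), all 12 P60 libraries (-0.14), the 15-day saline libraries alone (-0.29) and at least 30 cells (-0.076), and Cnih2 with all 12 (0.037) and the 15-day libraries alone (0.0078). With libraries left out they lay between -0.055 and 0.15 and between -0.28 and 0.42. In excitatory neurons Cacng2 turned with P21 libraries 2 and 3 summed (-0.0056), the authors' class (-0.022) and agreeing cells (-0.026), and Cacng3 with the summed libraries (0.0058), and they lay between -0.026 and 0.022 and between -0.14 and 0.037 with libraries left out. Leaving out libraries gave 1 to 2 of these genes and 766 (without P21 library 3) to 1477 of all genes, against 1248. For the difference between classes, 2 genes became 1 with DESeq2 size factors and 1 to 3 with libraries left out, and DESeq2 called 522 of all genes against 879. In excitatory clusters, 12 calls in 203 tests became 7 in 142 with at least 30 cells and 8 in 203 with DESeq2.

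For cocaine, none of the alternatives called any of the AMPA receptor genes. Among all genes in excitatory neurons, DESeq2 called 2 at maintenance, 3 at 48 h, 156 at 15 days and 7 over all periods, and no filter on low counts gave 40, 59, 381 and 60, with 311 for the difference between periods. Leaving out libraries gave 0 to 1, 0 to 1, 0 to 387, 0 to 75 and 0 to 118 in the same order. In inhibitory neurons at 48 h, 1 called gene became 0 with DESeq2 size factors, with mitochondrial and ribosomal genes kept and with the authors' class, and 3 with DESeq2. At 15 days 73 became 9 with DESeq2. With no filter the inhibitory counts were 1, 34, 151, 12 and 39, and with libraries left out 0 to 1, 0 to 42, 3 to 123, 0 to 12 and 0 to 29. Where 1 library remained in a group, it was assumed to vary like the other groups. The following cocaine differences turned direction when libraries were left out, with their lowest and highest values. In excitatory neurons these were Gria1 (-0.080 to 0.067), Gria2 (-0.0053 to 0.080) and Cnih3 (-0.095 to 0.15) at maintenance, Gria2 (-0.039 to 0.15), Gria3 (-0.17 to 0.049), Gria4 (-0.16 to 0.11), Cacng3 (-0.22 to 0.0043) and Cnih3 (-0.17 to 0.36) at 48 h, Gria4 (-0.18 to 0.083) and Cacng3 (-0.011 to 0.079) at 15 days, and Gria1 (-0.0095 to 0.056), Gria2 (-0.039 to 0.026) and Cnih3 (-0.0048 to 0.17) over all periods. In inhibitory neurons they were Gria1 (-0.29 to 0.96), Gria2 (-0.21 to 0.23), Gria3 (-0.20, without saline library 3, to 0.92), Cacng3 (-0.72 to 0.33), Cnih2 (-0.59 to 1.53) and Cnih3 (-0.30 to 1.64) at maintenance, and Gria1 (-0.48 to 0.25), Gria2 (-0.43 to 0.26), Cacng3 (-0.61 to 0.048) and Cnih3 (-0.69 to 0.30) at 48 h. At 15 days they were Gria1 (-0.068 to 0.17), Gria4 (-0.38 to 0.079), Cnih2 (-0.42 to 0.11) and Cnih3 (-0.28 to 0.27), and over all periods Gria1 (-0.10 to 0.31), Gria2 (-0.18 to 0.050), Gria3 (-0.38 to 0.12), Cacng3 (-0.17 to 0.18) and Cnih3 (-0.19 to 0.46). Inhibitory Gria2 at 48 h also turned with no filter (-0.0015), Cnih3 at 15 days with DESeq2 (-0.027) and the authors' class (-0.074), and Cacng3 over all periods with DESeq2 (0.014), no filter (0.0050) and the authors' class (0.0064). In excitatory clusters at maintenance, 7 called genes became 0 with at least 30 cells. The causes were not tested. With mitochondrial and ribosomal genes kept in the total, Gria1 and Gria2 in excitatory neurons were at 164 and 595 CPM. Inhibitory clusters, oligodendrocyte precursors at P21 and single P60 groups are limited by the number of cells and libraries.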
